A study of Mus musculus with 95 samples.

Results

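The transcripts of the insulin-like growth factor (IGF) binding proteins were followed in mouse lung across 95 Affymetrix arrays of 19 groups that differ in strain, day and exposure to the fungus Pneumocystis murina. The members are the probe sets that the platform annotation pairs with only one of Igfbp2, Igfbp3, Igfbp4, Igfbp5, Igfbp6 and Igfbp7. Of 12487 probe sets, 8 met this rule and they represent 5 genes: Igfbp2, Igfbp6 and Igfbp7 had 1 each, Igfbp3 had 2, Igfbp4 had 3 and Igfbp5 had 0. For a gene with several probe sets the brightest one leads and the others are given beside it.

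All mice are labelled female and 8 weeks old, and the tissue is lung homogenate. C57BL mice were exposed by housing them with an infected seeder mouse, and arrays cover exposed and unexposed lungs at days 7, 14, 21, 32, 34 and 41 and exposed lungs at day 75. CD40L-KO mice, which lack the CD40 ligand that T cells use to activate B cells and macrophages, have arrays for exposed lungs at days 32, 35, 39 and 75 and for unexposed lungs at days 14 and 32. Exposed and unexposed mice of experiments 1 to 3 were kept in different cages, and exposure therefore cannot be told apart from cage. Day 35 CD40L-KO mice, all exposed, are set against unexposed mice of this strain labelled day 14. The sources used here give no experiment for the mice of days 39 and 75. There were 60 exposed and 35 unexposed arrays, with 2 to 10 per group, and their number limits the precision of every value.

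Some arrays stand apart. On 16 arrays the mean of 8 squamous epithelium markers lay above 6 on the log2 scale against at most 5.06 on the other 79, and 4 of the 5 unexposed arrays of day 34 are among them. On all 17 arrays of 5 groups (C57BL of day 75, and CD40L-KO unexposed of day 14 and exposed of days 35, 39 and 75) the Y-linked gene Eif2s3y lay above Xist although the mice are labelled female. Cd40lg itself lay between 3.05 and 3.75 on all arrays, near the floor of 3 of the scale, so these arrays do not check the knockout label. Markers of lung epithelium were bright on every array, with a mean over 6 markers from 9.82 to 10.86.

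IGF binding proteins are secreted proteins that hold IGF-I and IGF-II outside cells, prolong their life in the circulation and govern how much reaches the IGF receptor. Proteases such as pregnancy-associated plasma protein A release the growth factors again, and several of the proteins also act on cells without IGF. In the lung they are made by mesenchymal, endothelial and epithelial cells, and in a homogenate fewer cells of a type cannot be told apart from less RNA per cell.

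The stretches upstream of Igfbp3, Igfbp6, Igfbp4 and Igfbp2 are shown first, so that these members can be compared by what stands before their start. They are the 150 bases before the start that the RefSeq promoter table for GRCm38.p6 lists, written 5′ to 3′ on the gene's strand. Capitals mark the letters TATANA, with any base in the fifth place, where they stand on the gene's strand. They also mark the letters of the binding pattern of Sp1 family factors, GGGCGG, where it stands on either strand.
Igfbp3: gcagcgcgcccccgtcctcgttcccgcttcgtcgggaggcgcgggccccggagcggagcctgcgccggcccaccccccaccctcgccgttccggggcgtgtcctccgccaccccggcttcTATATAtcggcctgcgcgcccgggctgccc
Igfbp6: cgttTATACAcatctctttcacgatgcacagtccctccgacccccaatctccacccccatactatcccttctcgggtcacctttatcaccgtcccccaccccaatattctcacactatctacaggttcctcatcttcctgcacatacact
Igfbp4: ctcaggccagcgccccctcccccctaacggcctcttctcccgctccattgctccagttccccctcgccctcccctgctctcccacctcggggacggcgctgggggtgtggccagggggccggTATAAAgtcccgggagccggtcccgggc
Igfbp2: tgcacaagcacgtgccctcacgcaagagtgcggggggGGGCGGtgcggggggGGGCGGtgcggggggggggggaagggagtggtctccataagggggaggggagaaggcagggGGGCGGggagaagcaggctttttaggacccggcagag
The Igfbp3 stretch is chr11:7213924-7214073 on the minus strand and the Igfbp4 stretch is chr11:99041094-99041243 on the plus strand. For Igfbp6 it is chr15:102144036-102144185 and for the first of the 2 listed starts of Igfbp2 it is chr1:72824330-72824479, both on the plus strand. The listed starts of Igfbp3 and Igfbp4 lie inside the spans annotated for these genes, not at their outer ends. All 5 genes were found in the table. Within the 250 bases before the start, with both strands searched and overlapping matches counted, TATANA on the gene's strand began 30 bases before the start of Igfbp3 and 28 before that of Igfbp4. In Igfbp6 it began 146 bases before the start, and in Igfbp2 and Igfbp7 these letters were not in the window on either strand. GGGCGG matched 3 times at the first Igfbp2 start and 4 times at Igfbp7, and 0 times at the other 3 genes. Of 32851 promoters of the same length, 22.6% held the first pattern and 32.7% held the second. The pattern of STAT factors, TTCNNNGAA, is found in 7.02% of promoters and the interferon-stimulated response element in 2.98%, and neither stood in any of the 6 windows of these genes.

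Igfbp3 and Igfbp4 lie on chromosome 11, far from each other, and the other members each lie on a chromosome of their own. In GRCm38.p6, Igfbp2 spans chr1:72824480-72852474, Igfbp3 chr11:7206086-7215498, Igfbp4 chr11:99040005-99052655, Igfbp6 chr15:102144186-102149512 and Igfbp7 chr5:77349240-77408045. Values below are log2(intensity + 8) of the deposited intensities, in which 1 unit is a doubling well above the offset. A probe set's level is not compared with another's, since probes differ in brightness. Igfbp6 ranged from 8.17 to 10.52 over the arrays, Igfbp2 from 7.89 to 10.09, the leading Igfbp4 probe set from 6.87 to 8.47, the leading Igfbp3 probe set from 5.51 to 8.52 and Igfbp7 from 4.59 to 6.54. The second Igfbp3 probe set ranged from 3.85 to 7.37, and the dimmest Igfbp4 probe set stayed between 3.18 and 4.74, close to the floor.

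Ordered by group mean, 3 of the 5 leading probe sets had their lowest value in the same group, the exposed C57BL mice of day 32. There Igfbp3 averaged 6.03 ± 0.64, Igfbp4 7.32 ± 0.44 and Igfbp6 8.82 ± 0.77 (SD, n = 3). The share of all probe sets with their lowest mean in that group was not determined. In it 15.9% of all probe sets lay below the day 32 controls without overlap. The highest means were 8.14 ± 0.33 for Igfbp3 in the unexposed C57BL mice of day 32 (n = 2), 8.13 ± 0.14 for Igfbp4 in the exposed CD40L-KO mice of day 35 (n = 4) and 10.48 ± 0.05 for Igfbp6 in the exposed CD40L-KO mice of day 39 (n = 2). Igfbp2 ran from 8.57 ± 0.41 in unexposed C57BL mice of day 7 (n = 4) to 9.89 ± 0.14 in exposed CD40L-KO mice of day 35 (n = 4). Igfbp7 ran from 5.27 ± 0.40 in unexposed CD40L-KO mice of day 14 (n = 5) to 6.37 ± 0.19 in unexposed C57BL mice of day 32 (n = 2). Most neighbours in these orders did not differ beyond their spread: of 18 gaps between neighbouring group means, 1 exceeded the larger of the 2 SDs for each of Igfbp2, Igfbp3, Igfbp4 and Igfbp7, and 2 did for Igfbp6. For Igfbp3, Igfbp4 and Igfbp6, 1 such gap set the exposed C57BL mice of day 32 below the next lowest group.

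**Figure D1:**
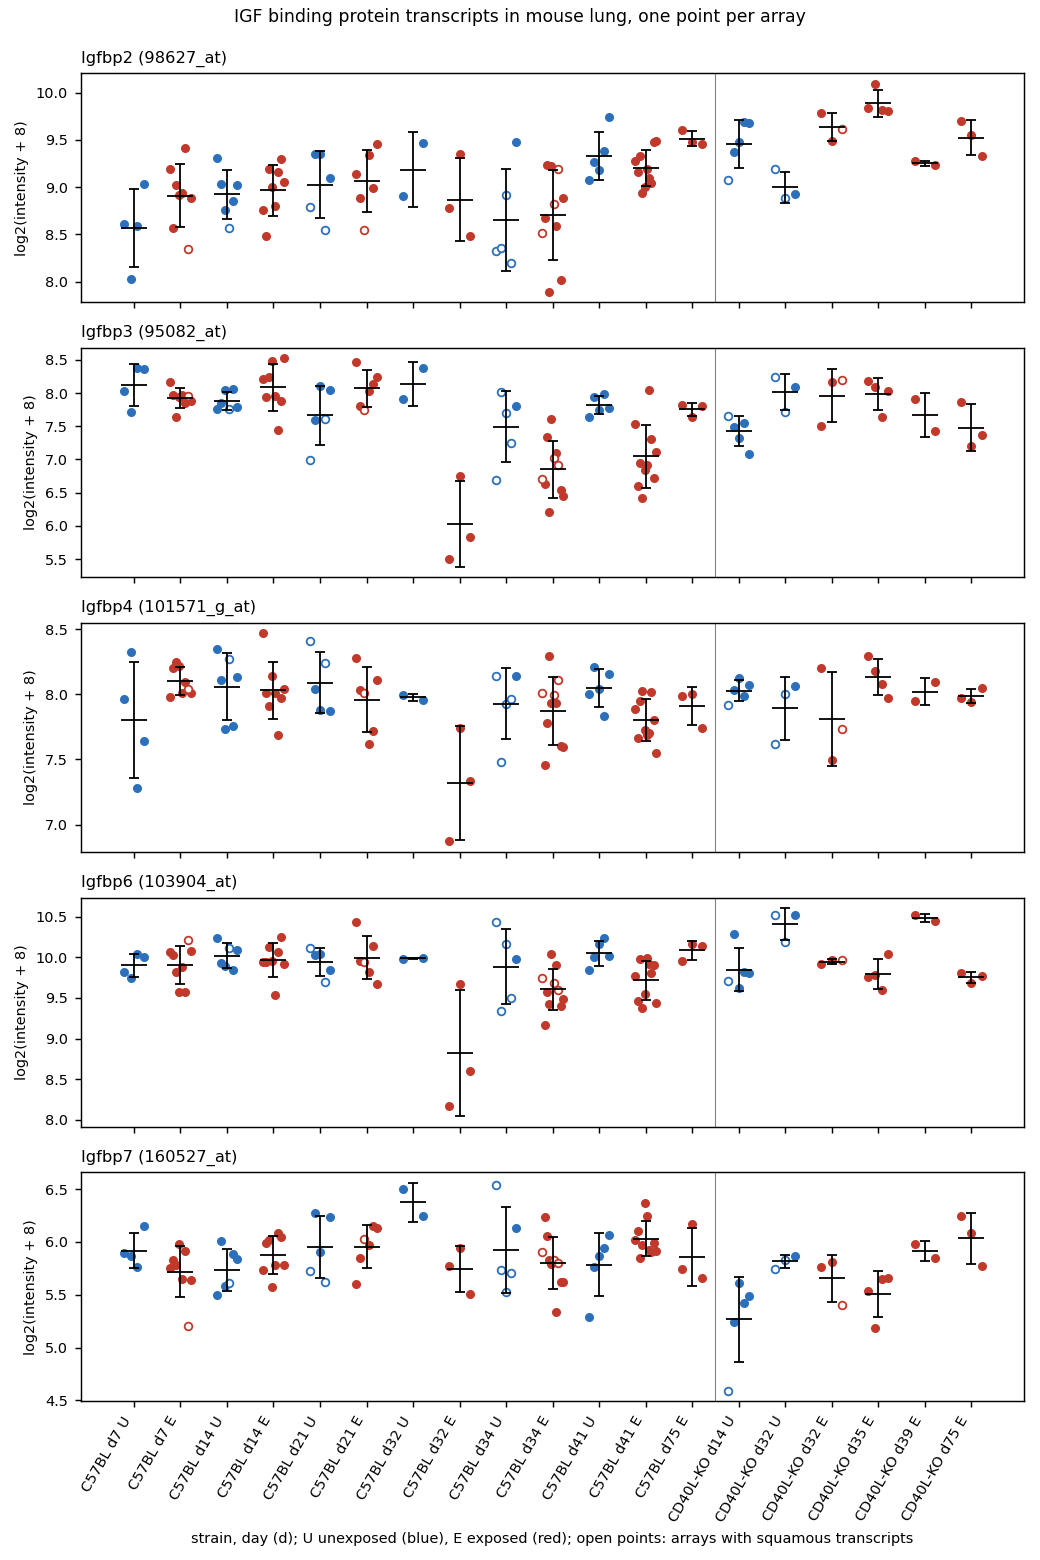
Each point is one array, with log2(intensity + 8) of the leading probe set on the vertical axis and the 19 groups on the horizontal axis, and the bars give the group mean and SD. Blue marks unexposed and red exposed mice, and open points are the 16 arrays with squamous transcripts. The exposed C57BL mice of day 32 lie lowest for Igfbp3, with 5.51, 6.75 and 5.83, and for Igfbp4 and Igfbp6.

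Igfbp3, the main carrier of IGFs in blood, gave the one member that passed the test in any of the 8 comparisons of exposed with unexposed mice. At day 32 its intensity was 37.5, 99.4 and 49.0 in the 3 exposed C57BL lungs and 232 and 323 in the 2 unexposed lungs. On the log2 scale these are 5.51, 6.75 and 5.83 against 7.91 and 8.37, so that every exposed lung lay below both controls by more than 1 unit. Igfbp3 fell by 2.11 ± 0.36 (SE, 95% confidence interval -2.90 to -1.32), which is 4.32-fold lower on this scale, with an adjusted p of 0.0256 in limma over all 12421 probe sets tested. It was 1 of 8 members called, against 1.22% of all probe sets called in either direction and 0.185% called lower. Its difference was larger in size than that of 99.6% of probe sets. Leaving out exposed lung 1 or 3 or either control gave adjusted p-values of 0.074 to 0.154 with differences of -2.34 to -1.85, and without exposed lung 2 the difference was -2.47 with an adjusted p of 0.0026.

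None of the other 7 members passed at day 32 in C57BL mice. In 5 of the 8 probe sets every exposed lung lay below every control, and 15.9% of all probe sets did so at these group sizes. Igfbp6, which prefers IGF-II, was 8.17, 9.68 and 8.61 in exposed lungs and 9.98 and 9.99 in unexposed lungs, a difference of -1.17 ± 0.34 with an adjusted p of 0.137. Igfbp4, an inhibitor of IGF action that pregnancy-associated plasma protein A cleaves, was 6.87, 7.74 and 7.34 against 8.00 and 7.96, a difference of -0.66 ± 0.28 (adjusted p = 0.292). Igfbp7, which binds IGFs weakly and is known from blood vessels, was 5.77, 5.94 and 5.51 against 6.51 and 6.24, with -0.63 ± 0.18 (adjusted p = 0.135). Igfbp2 overlapped its controls, with 8.77, 9.35 and 8.48 against 8.91 and 9.46 (-0.32 ± 0.26, adjusted p = 0.621). Among the exposed lungs, number 2 was nearest to the controls for Igfbp3, Igfbp6, Igfbp4 and Igfbp7. Without it Igfbp6 also passed, with a difference of -1.60 and an adjusted p of 0.0027. Igfbp6 passed in no other fit that left out 1 of these arrays.

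Cell type markers were read beside these values at day 32. Of 11 leukocyte markers, 2 rose in the exposed C57BL lungs (Cd68 by 1.15 and Itgam by 0.86, both markers of macrophages and other myeloid cells, adjusted p = 0.0355 and 0.0339), and the list's median difference was 0.91 against -0.0035 for all probe sets. Of 12 endothelial markers 0 passed in limma (4 at an unadjusted p under 0.05), with a median of -0.41, and 0 of 9 smooth muscle markers passed (3 at an unadjusted p under 0.05), with -0.46. Fibroblast markers gave 0 of 12 in limma (5 at an unadjusted p under 0.05) with a median of -0.20, mesothelial markers 0 of 4 (0 at an unadjusted p under 0.05) with -0.42 and lung epithelial markers 0 of 6 (0 at an unadjusted p under 0.05) with -0.29. The mean over the leukocyte markers was 7.78, 7.12 and 7.50 in exposed lungs 1, 2 and 3 and 6.55 and 6.91 in the controls, so exposed lung 2 had the lowest of the exposed. The mean over the endothelial markers was 8.03, 8.49 and 8.21 against 8.47 and 8.92, and exposed lung 2 had the highest of the exposed. The mesothelial mean was 6.42, 6.56 and 6.47 against 6.89 and 6.63, and the lung epithelial mean was 9.95, 10.25 and 9.82 against 10.30 and 10.32. Unlike the endothelial mean, these means lay below both controls in every exposed lung. They too were highest in exposed lung 2 among the exposed. The part of these cells in the Igfbp differences was not tested. None of the 5 C57BL arrays of day 32 carried squamous transcripts.

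Later lungs of a separate experiment showed a smaller Igfbp3 difference in the same direction that did not pass the test. At day 34 the exposed lungs ranged from 6.21 to 7.61 with a median of 6.81 (n = 10), and the unexposed lungs were 6.69, 8.02, 7.70, 7.25 and 7.81. The groups overlapped, with 9 of 10 exposed lungs below the mean of the unexposed ones. The difference was -0.64 ± 0.23 (95% confidence interval -1.11 to -0.18, adjusted p = 0.087), and 0 of 8 members passed in limma (2 at an unadjusted p under 0.05) where 6.38% of all probe sets did. Of the 5 unexposed lungs 4 carried squamous transcripts, among them the lowest, number 1, and the highest, number 2. Number 1 also had the highest log2 Gapdh ratio of all arrays, 2.13, a measure of RNA quality explained below. Without number 1 the difference was -0.84 with an adjusted p of 0.0296. Without exposed lung 5, the highest of its group, it was -0.73 with an adjusted p of 0.0446. The other limma fits that left out 1 array of this day did not call it, with adjusted p-values of 0.0731 to 0.224. Without all arrays with squamous transcripts 1 unexposed lung was left and the difference was -0.97 with an adjusted p of 0.58. At day 41, when none of the arrays carried squamous transcripts, exposed lungs ranged from 6.42 to 8.05 with a median of 6.94 (n = 10) and unexposed lungs were 7.64, 7.93, 7.75, 7.99 and 7.78. Again 9 of 10 exposed lungs lay below the mean of the controls, and 1 lay above all of them. The difference was -0.77 ± 0.23 (interval -1.24 to -0.31, adjusted p = 0.17), and 0 of 8 members passed in limma (2 at an unadjusted p under 0.05) where 0.66% of all probe sets did. Without exposed lung 7, the one above all controls, it was -0.89 with an adjusted p of 0.036. It passed in no other fit that left out 1 array of this day. The Igfbp3 effect of day 41 differed from that of day 34 by -0.13 ± 0.32 (adjusted p = 0.915), and 0 of 8 members differed between these days (0 at an unadjusted p under 0.05) against 0.0564% of all probe sets.

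**Figure D2:**
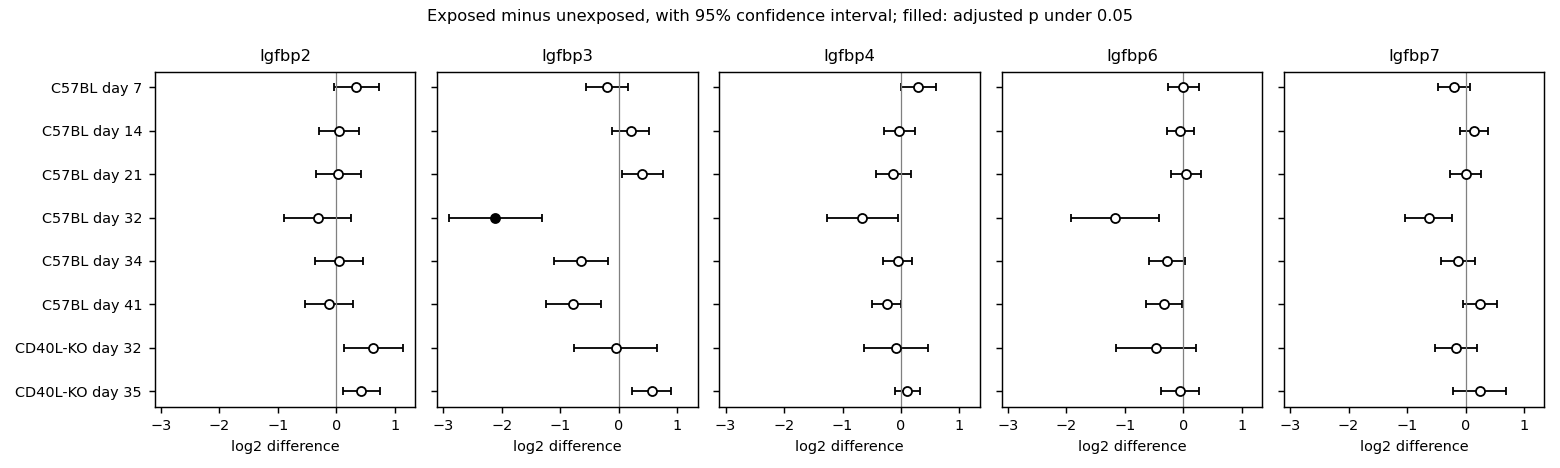
The log2 difference of exposed minus unexposed mice (horizontal axis) is drawn with its 95% confidence interval for the leading probe set of each gene in the 8 comparisons listed on the vertical axis. The filled point is the one with an adjusted p under 0.05, Igfbp3 at day 32 in C57BL mice (-2.11). The intervals are not adjusted for the number of probe sets. The Igfbp3 intervals of days 34 and 41 also lie below 0, and those of C57BL mice at day 21 and CD40L-KO mice at day 35 lie above 0.

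Before day 32 the members showed no called difference. In limma 0 of 8 passed at each of days 7, 14 and 21, with 0, 0 and 2 at an unadjusted p under 0.05, where 0%, 0.201% and 0% of all probe sets passed. Igfbp3 was 7.63 to 8.16 with a median of 7.95 in exposed C57BL lungs of day 7 (n = 8) and 8.04, 7.71, 8.38 and 8.36 in unexposed ones. The difference was -0.20 ± 0.17 (adjusted p = 0.882), and the groups overlapped. At day 14 it was 0.21 ± 0.15 (adjusted p = 0.888), and at day 21 it was 0.40 ± 0.17 (adjusted p = 0.42). All 6 exposed lungs of day 21 lay above the mean of the 5 controls, which were 6.99, 7.59, 8.10, 7.61 and 8.04, and numbers 1 and 4 of them carried squamous transcripts. The effects of days 14 and 21 each set against that of day 7 gave 0 of 8 members in limma (0 and 2 at an unadjusted p under 0.05), and 0% of all probe sets in both.

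CD40L-KO lungs gave no called Igfbp3 difference with exposure. At day 32 the exposed lungs were 7.50, 8.17 and 8.20 and the unexposed 8.24, 7.71 and 8.09, and the groups overlapped. Unexposed lungs 1 and 2 and exposed lung 3 carried squamous transcripts, and the log2 Gapdh ratio did not overlap between these groups. The part of tissue or RNA quality in this comparison, and in the strain contrast drawn from it, was tested only by the alternative fits. The Igfbp3 difference was -0.05 ± 0.32 with an interval from -0.76 to 0.65 (adjusted p = 0.962), and 0 of 8 members passed in limma (2 at an unadjusted p under 0.05) against 0.37% of all probe sets. The day 32 effect in CD40L-KO mice minus that in C57BL mice was 2.06 ± 0.48 for Igfbp3 (interval 0.99 to 3.12, adjusted p = 0.12) and 1.62 ± 0.37 for its second probe set (adjusted p = 0.117). This difference of effects did not pass for any of the 8 members in limma (0 of 8, with 3 at an unadjusted p under 0.05, against 0.153% of all probe sets). Without exposed C57BL lung 2 both probe sets of Igfbp3 passed, with 2.41 (adjusted p = 0.0178) and 1.87 (adjusted p = 0.0199). In the other fits that left out 1 array neither passed. At day 35 the exposed lungs were 8.19, 8.10, 7.64 and 8.03 and the unexposed lungs, labelled day 14, were 7.66, 7.49, 7.33, 7.55 and 7.08. The groups overlapped by 1 pair of arrays, and the difference was 0.56 ± 0.15 (interval 0.23 to 0.90, adjusted p = 0.391). Here 0 of 8 members passed in limma (2 at an unadjusted p under 0.05) against 0.00805% of all probe sets. Setting this effect against that of C57BL mice at day 34 gave 1.21 ± 0.33 (interval 0.53 to 1.88, adjusted p = 0.116), again with 0 of 8 members called in limma (2 at an unadjusted p under 0.05) against 0.411% of all probe sets. Without unexposed C57BL lung 1 of day 34 it was 1.41 with an adjusted p of 0.0401. Over the 24 fits that left out 1 array, 0 to 1 members passed.

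The 2 probe sets of Igfbp3 gave unlike differences in some comparisons. The second one was 5.83, 6.71 and 6.05 in exposed and 6.89 and 6.85 in unexposed C57BL lungs of day 32, a difference of -0.67 ± 0.28 (adjusted p = 0.281), lower without overlap as for the leading one. In CD40L-KO lungs of day 32 the second probe set was 6.82, 7.03 and 7.37 with exposure and 6.36, 5.79 and 6.25 without. There the groups did not overlap and the difference was 0.94 ± 0.25 (adjusted p = 0.124), while the leading probe set differed by -0.05. Of all probe sets 14.0% were higher without overlap there. The log2 Gapdh ratio, the level at the 3' end of Gapdh minus that at its 5' end, which is high where RNA is degraded, was -0.12 to 0.0011 in these exposed lungs and 0.22 to 0.45 in the unexposed ones, and did not overlap either. Its part in the differences of this comparison was not tested beyond its use as a covariate, which cannot separate a ratio without overlap from exposure. With this covariate the second probe set differed by 1.56 (adjusted p = 0.35). At day 35 it was 6.78, 6.78, 6.80 and 6.49 against 6.86 to 6.96, lower without overlap where the leading one lay higher, with -0.19 ± 0.09 (adjusted p = 0.604), and 1.82% of all probe sets were lower without overlap there. At day 34 its spread was wide, from 3.85 to 6.93 in exposed lungs and with 4.21, 5.26, 6.47, 3.94 and 6.51 in unexposed ones, and the difference was 0.10 ± 0.48 (adjusted p = 0.933). The Gapdh ratio had a median of 1.26 on these unexposed and 0.16 on these exposed arrays. The part of the ratio in this difference was not tested beyond its use as a covariate. Array by array, the deviation of the second probe set from its group mean was set against the Gapdh ratio. The relation was inverse: over 95 arrays Pearson's r was -0.67 and Spearman's rho -0.55. In a permutation test within groups with 100000 draws the two-sided p was 2e-05 for r and 1e-05, the smallest these draws can give, for rho (0.00036 and 0.00024 adjusted over 72 correlations of 8 probe sets with 9 measures). Without the 2 arrays farthest from the median ratio r was -0.64, and within experiments it was 0.49 in experiment 1 (11 arrays), -0.67 in experiment 2 (30), -0.85 in experiment 3 (37) and 0.14 in experiment 4 (9). For the leading probe set the same r was -0.06.

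**Figure D3:**
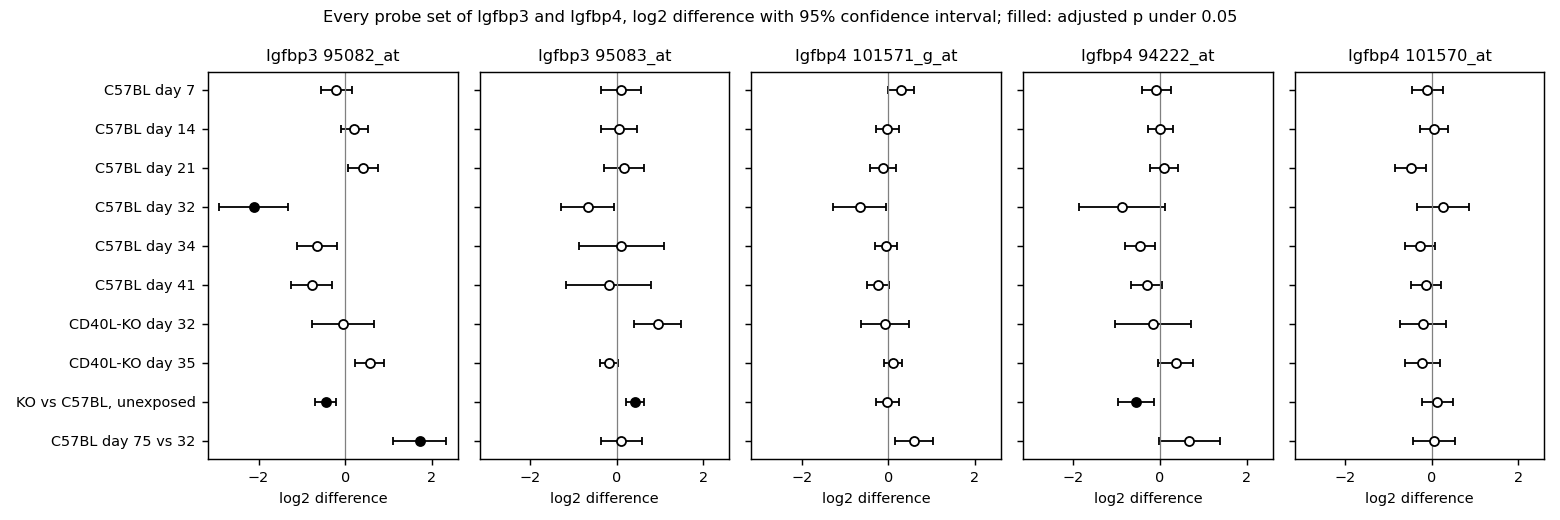
Log2 differences with 95% confidence intervals (horizontal axis) are drawn for the 2 probe sets of Igfbp3 and the 3 of Igfbp4 in the 8 exposure comparisons, in unexposed CD40L-KO against C57BL mice of day 14 and in exposed C57BL mice of day 75 against day 32. Filled points have an adjusted p under 0.05. The Igfbp3 probe sets part in unexposed mice of the 2 strains, with -0.45 for the leading one and 0.42 for the other.

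Igfbp6 lay lower in exposed than in unexposed C57BL lungs of days 32, 34 and 41, without passing the test at any of them. At day 34 the exposed lungs ranged from 9.16 to 10.04 with a median of 9.58 (n = 10) and the unexposed lungs were 10.44, 9.34, 10.17, 9.50 and 9.98. These groups overlapped, and the difference was -0.28 ± 0.15 (adjusted p = 0.272). At day 41 all 10 exposed lungs, from 9.38 to 9.99 with a median of 9.79, lay below the mean of the unexposed lungs, which were 9.84, 10.00, 10.16, 10.23 and 10.02. The difference was -0.33 ± 0.15 (adjusted p = 0.606). In CD40L-KO lungs of day 32, Igfbp6 was 9.91, 9.96 and 9.96 with exposure and 10.52, 10.18 and 10.52 without. All 3 exposed lungs lay below all 3 controls, 2 of which carried squamous transcripts, with a difference of -0.46 ± 0.31 (adjusted p = 0.537). Lower values without overlap were found for 6.59% of all probe sets in that comparison. The Gapdh ratio did not overlap between these groups, and with it as a covariate the Igfbp6 difference was 0.13 ± 0.61 (adjusted p = 0.966). Since the ratio separates the groups, this fit cannot tell its part from that of exposure. Within groups, over 95 arrays, Igfbp6 had an r of -0.07 with the ratio. At day 35 in CD40L-KO mice the difference was -0.06 ± 0.15 (adjusted p = 0.944), and at days 7, 14 and 21 it lay between -0.05 and 0.05.

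No Igfbp4 probe set passed the test in any of the 8 exposure comparisons. Its leading probe set gave 0.30 ± 0.15 at day 7 (adjusted p = 0.753), where all 8 exposed lungs lay above the mean of the 4 controls (7.96, 8.32, 7.28 and 7.64). At day 41 it gave -0.25 ± 0.12 (adjusted p = 0.688), and all 10 exposed lungs, from 7.55 to 8.03, lay below the mean of the controls (8.00, 8.21, 8.04, 7.84 and 8.15). The second Igfbp4 probe set was 6.31, 6.20 and 4.61 in exposed and 6.30 and 6.88 in unexposed C57BL lungs of day 32. Exposed lung 3 stood far below the other lungs, and the difference was -0.88 ± 0.44 (adjusted p = 0.389). At day 34 the second probe set gave -0.46 ± 0.17 (adjusted p = 0.0995), with its highest value, 8.10, in unexposed lung 1. That lung carried squamous transcripts, as 4 of the 5 unexposed lungs did, and had a log2 Gapdh ratio of 2.13. The second probe set passed there without exposed lung 2 (-0.54, adjusted p = 0.0328) or unexposed lung 5 (-0.54, adjusted p = 0.049), and in no other fit that left out 1 array. The third, near the floor, gave differences from -0.49 to 0.26 over the 8 comparisons with adjusted p-values of at least 0.358.

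Igfbp2, which binds integrins as well as IGFs and is made by alveolar type I cells, was higher without overlap in exposed CD40L-KO lungs in both experiments with this strain, without passing the test. At day 32 it was 9.79, 9.49 and 9.62 with exposure and 9.19, 8.89 and 8.92 without. The difference was 0.63 ± 0.23 (interval 0.12 to 1.15, adjusted p = 0.247), and 14.0% of all probe sets were higher without overlap there. Unexposed lungs 1 and 2 and exposed lung 3 carried squamous transcripts, and the mean of 10 skeletal muscle markers was 7.31 and 8.15 in those unexposed lungs and at most 5.67 in the other 4. The part of these tissues in the Igfbp2 difference was tested only by fits with their scores or without these arrays, which gave 0.56 to 0.72, none past the threshold. At day 35 it was 9.84, 10.09, 9.81 and 9.80 against 9.07, 9.38, 9.47, 9.69 and 9.68, a difference of 0.43 ± 0.14 (interval 0.12 to 0.74, adjusted p = 0.466). Higher values without overlap were found for 1.76% of all probe sets at day 35. In C57BL mice the Igfbp2 differences lay between -0.32 and 0.34 at the 6 days, with adjusted p-values of at least 0.621. The day 32 effect was 0.95 ± 0.35 higher in CD40L-KO than in C57BL mice, with an adjusted p of 0.278.

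Igfbp7 differed by at most 0.24 in size in the 7 exposure comparisons other than that of C57BL mice at day 32. At day 41 all 10 exposed lungs, from 5.85 to 6.37 with a median of 5.98, lay above the mean of the controls, which were 5.29, 5.76, 5.87, 5.94 and 6.07. The groups overlapped and the difference was 0.24 ± 0.14 (adjusted p = 0.808). At day 34 it was -0.12 ± 0.14 (adjusted p = 0.653).

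Unexposed lungs of the 2 strains labelled day 14 come from different experiments, and Eif2s3y lay above Xist in the CD40L-KO group alone, so strain, experiment and this difference cannot be told apart. Between them 35.6% of all probe sets were called, and 4 of 8 members were, 2 higher and 2 lower in CD40L-KO mice, beside 16.3% and 19.4% of all probe sets. Igfbp2 was higher in CD40L-KO lungs (9.07, 9.38, 9.47, 9.69 and 9.68) than in C57BL lungs (8.57 to 9.31, median 8.94, n = 6) by 0.53 ± 0.15 (adjusted p = 0.0134). The groups overlapped by the lowest CD40L-KO lung, which carried squamous transcripts. The leading Igfbp3 probe set was lower, with 7.66, 7.49, 7.33, 7.55 and 7.08 against 7.76 to 8.06 (median 7.82), and did not overlap. It fell by 0.45 ± 0.11 (adjusted p = 0.0083), while the second probe set was higher by 0.42 ± 0.09 (adjusted p = 0.0038), from 6.86 to 6.96 against 6.22 to 6.69, also without overlap. Of all probe sets 11.7% were lower and 10.6% higher without overlap. The direction of Igfbp3 between these groups therefore depends on the probe set, and the mean of both differed by -0.02. The second Igfbp4 probe set was lower by 0.56 ± 0.19 (adjusted p = 0.0371) and lost its call in 8 of 11 fits that left out 1 array, while the leading one differed by -0.03 ± 0.12 (adjusted p = 0.869). Igfbp7 differed by -0.47 ± 0.17 (adjusted p = 0.0519), with its lowest value, 4.59, on the array with squamous transcripts. It passed under 7 of 13 alternatives (adjusted p from 0.0094 to 0.0483) and in 2 of 11 fits that left out 1 array (0.0327 without CD40L-KO lung 3 and 0.0486 without C57BL lung 1). With the Gapdh ratio as a covariate 2 of the 4 calls were left, both higher, and the leading Igfbp3 probe set gave -0.32 with an adjusted p of 0.0952.

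Exposed C57BL lungs of day 75 were set against those of day 32, in which Igfbp3, Igfbp4 and Igfbp6 were lowest. The day 32 lungs are the same 3 as above, so this comparison is no second measurement of their low level. Eif2s3y lay above Xist on the day 75 arrays alone, and no experiment is given for these mice. Day, experiment and this difference therefore cannot be told apart. Igfbp3 was 7.82, 7.63 and 7.80 at day 75 and was higher by 1.72 ± 0.29 (adjusted p = 0.0012), and Igfbp6 was 9.95, 10.17 and 10.14 and higher by 1.27 ± 0.25 (adjusted p = 0.0034). Igfbp2, with 9.60, 9.48 and 9.46, was higher by 0.65 ± 0.20 (adjusted p = 0.0365) and lost its call in 5 of 6 fits that left out 1 array. The 3 genes did not overlap between the days, like 15.0% of all probe sets in this direction, and they made 3 of 8 members called, against 14.8% of all probe sets in either direction and 7.2% higher. Igfbp4 differed by 0.59 ± 0.21 (adjusted p = 0.0663) and Igfbp7 by 0.12 ± 0.17 (adjusted p = 0.723). The second Igfbp3 probe set differed by 0.10 ± 0.22 (adjusted p = 0.83). The log2 Gapdh ratio was -0.10 to 0.04 at day 32 and 0.14 to 0.26 at day 75, and with it as a covariate 0 of 8 members passed in limma, with Igfbp3 at 1.39 (adjusted p = 0.061) and Igfbp6 at 1.07 (adjusted p = 0.0983). The ratio did not overlap between these days, so this fit cannot tell its part from that of day. Of the leukocyte markers 4 of 11 were lower at day 75, and 5 of 12 endothelial markers were higher.

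At day 75 none of the 8 members was called between exposed CD40L-KO and exposed C57BL lungs in limma (0 called, 0 at an unadjusted p under 0.05, against 0.66% of all probe sets). Igfbp3 was 7.87, 7.20 and 7.36 in CD40L-KO lungs, overlapping the C57BL lungs, with a difference of -0.28 ± 0.29 (interval -0.89 to 0.34). Igfbp6 was 9.81, 9.68 and 9.77, below all 3 C57BL lungs as 5.02% of all probe sets were, with -0.33 ± 0.25 (adjusted p = 1.00). The second Igfbp4 probe set also lay below all C57BL lungs, with 5.92 to 6.13 against 6.19 to 6.51, so 2 of 8 members were lower without overlap. Within CD40L-KO mice, day 75 against day 39 gave 0 of 8 members (1 at an unadjusted p under 0.05) against 2.13% of all probe sets. That 1 was Igfbp6, which was 10.52 and 10.45 at day 39 (-0.73 ± 0.28, adjusted p = 0.194).

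Deviations from the group means were set against the means of cell type markers. Of the 72 correlations 14 had adjusted p-values under 0.05 and 8 under 0.001 for both r and rho, and these 8 are given in full here or above. Those under 0.05 only include Igfbp2 with the squamous (r = -0.36) and mesothelial (-0.38) means. They also include the leading Igfbp3 probe set with the fibroblast mean (-0.31) and the leading Igfbp4 one with the endothelial mean (-0.32). The rest were Igfbp6 with the lung epithelial (0.39) and leukocyte (-0.30) means. After each group's mean was subtracted, Igfbp2 correlated over 95 arrays with the mean of the 12 endothelial markers (r = 0.62, rho = 0.61, both with a permutation p of 1e-05 and 0.00024 adjusted). Within experiments 1 to 4 its r was 0.66, 0.62, 0.67 and 0.48, and without the 2 farthest arrays it was 0.63. Against the skeletal muscle mean its r was -0.50 (rho = -0.45, permutation p = 4e-05 and 9e-05, adjusted 0.00048 and 0.00093), with -0.07, -0.31, -0.73 and -0.75 in experiments 1 to 4 and -0.48 without the 2 farthest. The leading Igfbp3 probe set also went with the endothelial mean (r = 0.45, rho = 0.47, permutation p = 4e-05 and 6e-05, adjusted 0.00048 and 0.00072), with 0.84, 0.57, 0.36 and -0.15 in experiments 1 to 4 and 0.43 without the 2 farthest arrays. For the second Igfbp3 probe set this r was 0.04. The leading Igfbp4 probe set went with smooth muscle markers (r = 0.54, rho = 0.51, permutation p = 1e-05 and 2e-05, adjusted 0.00024 and 0.00036), with 0.97, 0.41, 0.49 and 0.33 in experiments 1 to 4 and 0.52 without the 2 farthest. It went also with the mesothelial mean (r = 0.49, rho = 0.45, permutation p = 1e-05 and 3e-05, adjusted 0.00024 and 0.00043), with 0.68, 0.61, 0.55 and -0.73 in experiments 1 to 4 and 0.42 without the 2 farthest. With the fibroblast mean its r was 0.48 (rho = 0.48, permutation p = 0.0001 and 1e-05, adjusted 0.0009 and 0.00024), with 0.48, 0.46, 0.54 and -0.16 in experiments 1 to 4 and 0.50 without the 2 farthest. The other Igfbp4 probe sets did not share these relations. With the smooth muscle, mesothelial and fibroblast means the second gave r of 0.14, 0.09 and 0.115. The third, near the floor, gave -0.08, -0.006 and -0.08. Igfbp6 correlated with the mesothelial mean (r = 0.38, rho = 0.40, permutation p = 5e-05 and 0.00011, adjusted 0.00051 and 0.00099), with 0.18, 0.60, 0.29 and 0.64 in experiments 1 to 4 and 0.38 without the 2 farthest. For Igfbp7 none of the 9 measures passed after adjustment. All points of these relations share their array and its scaling.

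Igfbp3 shared its order of groups with other genes. Among 4914 genes brighter than the median probe set, those most like Igfbp3 over the 19 group means were Reck, a membrane-anchored inhibitor of matrix metalloproteinases (r = 0.89), Akap12, a scaffold for protein kinase A (0.85), and Tcf21, a transcription factor of lung mesenchyme (0.85). Within groups, over 95 arrays, the same correlations were 0.49, 0.51 and 0.49. Without the exposed C57BL mice of day 32 they were 0.78, 0.72 and 0.71 over 18 group means. In those mice the group mean of Reck was 7.26 ± 0.66 against 8.34 ± 0.11 in their controls, and that of Tcf21 was 7.73 ± 0.44 against 8.69 ± 0.42 (SD, n = 3 and 2). Igfbp6 was most like Gstm1, a glutathione transferase (0.92), Ephx1, microsomal epoxide hydrolase (0.92), and Gstm3 (0.89), with 0.50, 0.47 and 0.25 within groups and 0.82, 0.82 and 0.74 without day 32. The Gstm genes are near copies of each other, so their probe sets can share signal.

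**Figure D4:**
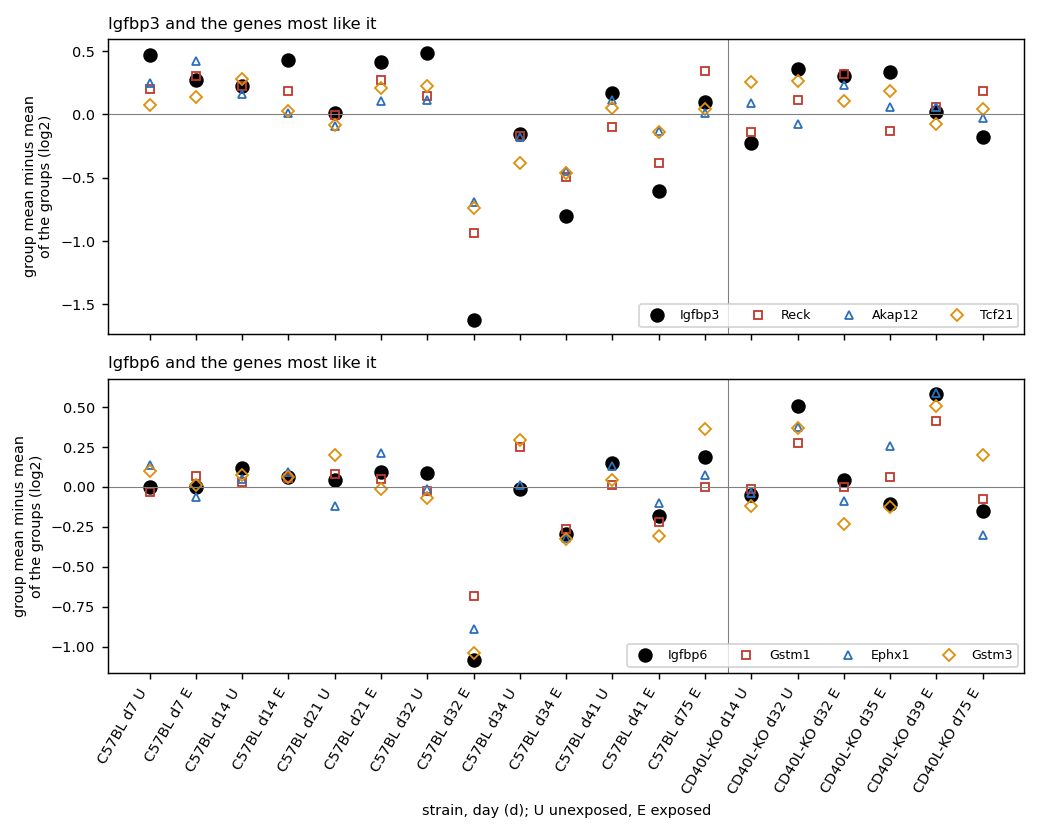
Group means minus the mean over the 19 groups (log2, vertical axis) are drawn for Igfbp3 with Reck, Akap12 and Tcf21 and for Igfbp6 with Gstm1, Ephx1 and Gstm3. All 8 genes have their lowest group mean in the exposed C57BL mice of day 32, and the genes were picked for this likeness.

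Igfbp2 was most like Cx3cl1, the chemokine fractalkine (0.85), Cox7a2l (0.83) and Arpc1a (0.82), with 0.47, -0.10 and 0.36 within groups. Igfbp4 was most like Snx21 (0.83), Wwc1 (0.83) and Anp32a (0.81), but without the exposed C57BL mice of day 32 these were 0.38, 0.52 and 0.52. Igfbp7 was most like Slc1a5 (0.84), Gpam (0.78) and Bmp1 (0.76), with 0.11, 0.18 and 0.11 within groups. Among the members themselves, Igfbp3 and Igfbp6 correlated at 0.78 over the 19 group means and at 0.48 without that group, and Igfbp3 and Igfbp4 at 0.71 and 0.25. The 2 probe sets of Igfbp3 correlated at 0.49 over group means and 0.43 within groups.

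The rest of the IGF system was followed on 23 measured of 28 genes for ligands, receptors, adaptors and regulators, and on 9 of 11 genes for other proteins with an IGFBP domain. In all 8 exposure comparisons 0 of 23 and 0 of 9 of them passed in limma, with 1 to 5 and 0 to 2 at an unadjusted p under 0.05. Their median differences lay between -0.15 and 0.04 for the IGF axis and between -0.22 and 0.05 for the IGFBP-domain genes, beside -0.03 to 0.07 for all probe sets. Neither ligand passed at day 32 in C57BL mice, where Igf1 differed by 0.22 ± 0.19 (adjusted p = 0.644) and Igf2 by -0.65 ± 0.31 (adjusted p = 0.357). The smallest p-values there belonged to Ghr, the growth hormone receptor, with -1.17 ± 0.25 (adjusted p = 0.0565), and Irs2, an adaptor of the insulin and IGF receptors, with -0.97 ± 0.27 (adjusted p = 0.117). Among the IGFBP-domain genes they belonged to Kazald1 with -0.79 ± 0.30 (adjusted p = 0.24) and the protease Htra1 with -0.54 ± 0.21 (adjusted p = 0.265). Igf1r, the receptor, differed by -0.52 ± 0.22 (adjusted p = 0.283).

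**Figure D5:**
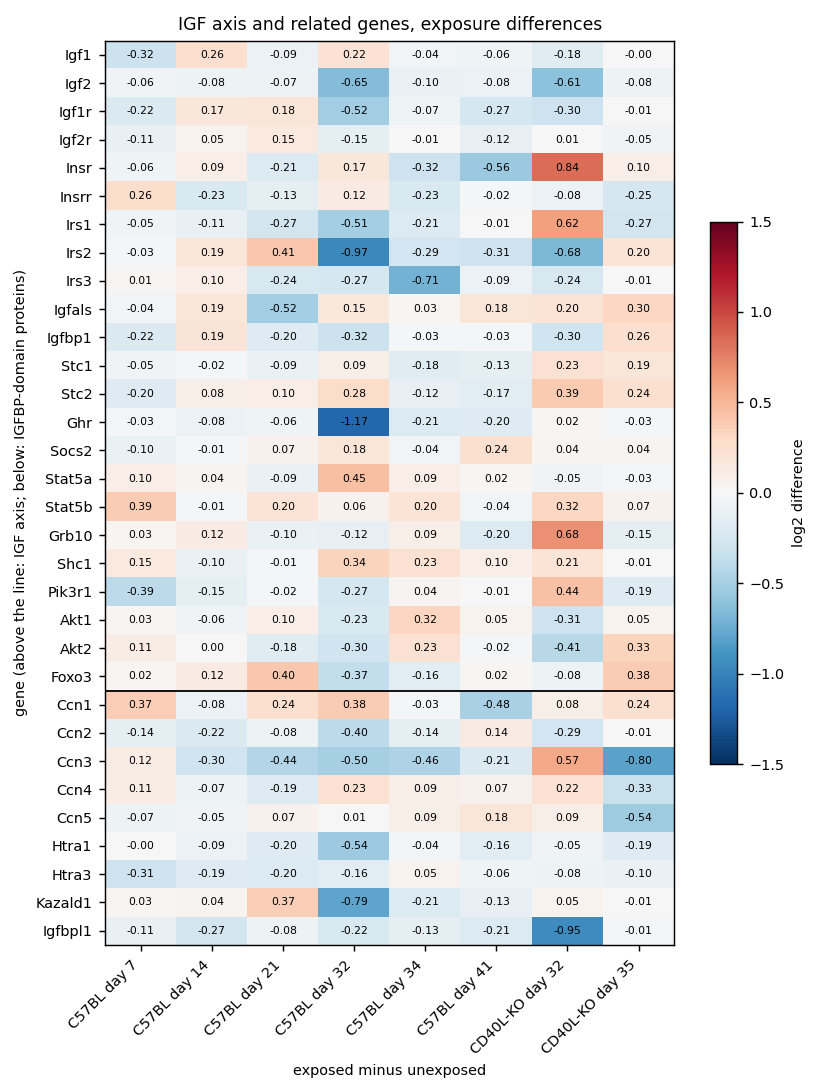
Each cell gives the log2 difference of exposed minus unexposed mice for one gene (rows) in one of the 8 comparisons (columns), with the 23 genes of the IGF axis above the line and the 9 IGFBP-domain genes below it. Red is higher and blue lower with exposure. The deepest blue cell is Ghr at day 32 (-1.17), and none of the cells passed the test.

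Comparisons between strains and days without an exposure contrast called some of these genes, on a larger background. The limits given above hold here too: strain at day 14, and day 75 against day 32, cannot be told apart from experiment or from the Eif2s3y difference. Between unexposed CD40L-KO and C57BL mice of day 14, 3 of 23 IGF axis genes were higher and 8 lower, beside 16.3% and 19.4% of all probe sets. They include Akt2 (fell by 0.90 ± 0.09, adjusted p = 1.8e-05), Igf2r (fell by 0.81 ± 0.11, adjusted p = 0.00015), Ghr (higher by 0.55 ± 0.09, adjusted p = 0.00055) and Igf2 (fell by 0.93 ± 0.17, adjusted p = 0.0011). Of the IGFBP-domain genes Ccn2, a growth factor of connective tissue, was higher by 1.09 ± 0.12 (adjusted p = 4.1e-05) and Ccn3 by 1.00 ± 0.20 (adjusted p = 0.0022), while Htra3 fell by 0.33 ± 0.10 (adjusted p = 0.0281). In exposed C57BL mice of day 75 against day 32, 2 of 23 were higher and 2 lower, against 14.8% of all probe sets called in either direction and 7.2% higher. Ghr was higher by 1.10 ± 0.19 (adjusted p = 0.0017) and Irs2 by 0.66 ± 0.21 (adjusted p = 0.0427), while Stat5a (fell by 0.65 ± 0.14, adjusted p = 0.007) and Socs2, an inhibitor of growth hormone signalling (fell by 0.72 ± 0.19, adjusted p = 0.0197), were lower. Kazald1 was higher by 0.88 ± 0.23 (adjusted p = 0.0169) and Htra1 by 0.50 ± 0.16 (adjusted p = 0.0425). Between the strains at day 75, Ccn1 was the 1 gene of these lists called, higher in CD40L-KO mice by 1.5 ± 0.23 (adjusted p = 0.0023).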

How the data were processed

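Lung RNA was measured on Affymetrix arrays. Its deposited values are linear intensities, 1 for each probe set of an array. The authors had scaled them, since the mean of an array trimmed by 2% at both ends lay between 100.05 and 100.07. How they summarised probes is not stated in the sources used here. Array medians were 35.5 to 46.3.

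Intensities were used as deposited, as log2(intensity + 8). Of 12487 probe sets, 65 controls and 1 with a missing value were left out. In the platform annotation 10855 probe sets have 1 gene symbol, 396 have several and 1236 lack one. Coordinates and promoters are RefSeq's for GRCm38.p6. Groups come from the labels. Each comparison was fitted with limma 3.58.1 (lmFit, eBayes) in R 4.3.3 on the groups of its experiment, of experiments 2 and 4 together for day 35 against day 34, on both unexposed groups of day 14, or on the 7 groups of days 32, 39 and 75. All 12421 probe sets entered, with Benjamini-Hochberg adjustment and a threshold of 0.05. Nothing but the replicate number says whether arrays of a group are separate animals, so p-values measure the spread between arrays. The members and lists were chosen with earlier results of these data known. Named are all members in every comparison, up to 4 called genes of each list (where there is none, the 2 of smallest p), the 3 genes most like each member, Xist, Eif2s3y and Cd40lg; Igf1, Igf2 and Igf1r at day 32 were named besides, after their values were seen. Marker means are over log2 values of a list.

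Alternatives were offsets of 2 and 32, dropping the dimmest probe sets, quantile normalization, 1 fit of all arrays, a gene's brightest probe set or its mean, a block for the replicate number, covariates for the squamous score, for squamous and skeletal muscle scores and for the Gapdh ratio, leaving out arrays with a squamous score above 7 or above 6 (the second chosen after seeing the data), and leaving out each array in turn. On simulated data with 200 of 12421 probe sets changed, the fit found 22, 42, 50 and 49 of 50 changes of 1, 2, 3 and 4 log2 units at day 32 in C57BL mice, with 10 false calls, and 43, 50, 50 and 50 at day 34, with 10. No arrays were identical (0 pairs). Tables and figures were made in Python 3.11.15 (numpy 2.4.6, matplotlib 3.10.9, pandas 2.3.3).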

Additional observations from a re-analysis of the deposited data

Results flagged for a closer look

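In 9 of 96 tests, each of 1 probe set in 1 group of 4 to 10 arrays, one array stood far from the others by Dixon's criterion, which chance alone gives in about 1 of 20 tests. The second Igfbp4 probe set accounts for 4 of them. It was 8.10 in unexposed C57BL lung 1 of day 34, against at most 7.01 in the other 4, on an array with squamous transcripts and with the highest log2 Gapdh ratio of all arrays, 2.13. It was 7.33 in exposed C57BL lung 2 of day 34, where the ratio was 1.59, 7.24 in exposed C57BL lung 6 of day 14, where the ratio was 0.86, and 6.52 in unexposed C57BL lung 4 of day 41, where the ratio was -0.06. The part of RNA quality in these values was not tested.

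Igfbp6 was 9.53 in exposed C57BL lung 5 of day 14, the lowest of 8, and 10.29 in unexposed CD40L-KO lung 2 of day 14, the highest of 5. Igfbp7 was 5.20 in exposed C57BL lung 7 of day 7, the lowest of 8, on an array with squamous transcripts. In the exposed CD40L-KO mice of day 35 Igfbp2 was 10.09 in lung 2, above the 9.80 to 9.84 of the other 3, and the second Igfbp3 probe set was 6.49 in lung 4, below the 6.78 to 6.80 of the others. None of the tests of a difference between exposure effects called a member.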

How the results depend on the processing

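The Igfbp3 call of day 32 in C57BL mice kept its direction under all alternatives, from -2.45 to -1.39, but not its side of the threshold: 0 members were called with an offset of 2 (adjusted p = 0.0511), the mean of the probe sets (0.0561), the replicate block (0.0575), both tissue scores (0.0935) or without arrays with a squamous score above 7 (0.0651) or above 6 (0.109), which removes CD40L-KO arrays of the same fit alone. In 1 fit of all arrays 3 were called there, 1 at day 34, 1 at day 41, 1 for the strain difference of day 32 and 1 for CD40L-KO day 35 minus C57BL day 34, which also had 1 with both tissue scores. That fit ended both Igfbp3 calls between unexposed strains (adjusted p = 0.0909 and 0.395) and the Igfbp2 call of day 75 against day 32 (0.0841), and called Igfbp7 between unexposed strains (0.0094). The 4 members called between unexposed strains became 2 with the replicate block or the Gapdh ratio and 5 under 4 other settings, and the 3 of day 75 against day 32 became 0 with the Gapdh ratio. Deviations of same-numbered arrays from their group means correlated at -0.40 to 0.46, which does not settle whether these arrays share more than a number. The replicate block moved no other count of calls. Leaving out 1 array at a time gave 0 to 2 members at day 32 in C57BL mice, 0 to 1 at day 34, 0 to 1 at day 41, 0 to 2 for the strain difference of day 32, 0 to 1 for day 35 minus day 34, 3 to 4 between unexposed strains and 2 to 4 for day 75 against day 32, and 0 in all other comparisons. Values that turned direction, none past the threshold, were the dimmest Igfbp4 probe set at day 34 (0.18, without squamous scores above 6) and in CD40L-KO mice at day 35 (0.020, both tissue scores), Igfbp7 in the latter (-0.054), Igfbp6 in CD40L-KO mice at day 32 (0.13, Gapdh ratio), the leading Igfbp4 probe set for day 41 minus day 34 (0.032, mean of the probe sets, and 0.094, scores above 6) and Igfbp7 for day 21 minus day 7 (-0.073, scores above 6). Over 1649 values under the alternatives, 1605 kept their side of the threshold without turning. A change of sign was counted as turning only where either value passed the threshold or the reported difference was larger than its own SE: in all, 93 of the 1649 values had the opposite sign, as had 102 of 1832 with 1 array left out. The counts over all probe sets moved with the settings too, at day 32 in C57BL mice from 1 to 874 beside 152, and at day 34 from 15 to 1607 beside 793. The cause was not tested. Dim probe sets and groups of 2 or 3 arrays limit what can be called.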

Other observations

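The probe set that the annotation pairs with both Tmem119 and Igfbp5 cannot be given to either gene. Its group means ran from 8.76 ± 0.24 in exposed C57BL mice of day 32 (SD, n = 3) to 10.10 ± 0.20 in unexposed CD40L-KO mice of day 14 (n = 5). In exposed C57BL mice of day 34 it ranged from 8.39 to 9.75 (n = 10), against 9.03 to 10.64 in unexposed mice (n = 5), and fell by 0.83 ± 0.20 (limma, adjusted p = 0.0107). At day 32 the difference was -0.82 ± 0.31 (adjusted p = 0.235) and at day 41 it was -0.30 ± 0.20 (adjusted p = 0.866). In CD40L-KO mice it differed by -0.47 ± 0.27 at day 32 (adjusted p = 0.469) and by -0.11 ± 0.13 at day 35 (adjusted p = 0.847). It was higher in unexposed CD40L-KO than in unexposed C57BL mice of day 14 by 0.74 ± 0.21 (adjusted p = 0.0172), and higher in exposed C57BL mice of day 75 than of day 32 by 0.91 ± 0.24 (adjusted p = 0.0185). Of the 5 unexposed arrays of day 34, 4 carried squamous transcripts. The log2 Gapdh ratio had a median of 1.26 on the unexposed and 0.16 on the exposed arrays of that day. The part of squamous tissue or RNA quality in the day 34 difference was not tested.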
